A study of Rattus norvegicus with 6 samples.

Results

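Small leucine-rich proteoglycans and versican, a group of 8 genes (Dcn, Bgn, Aspn, Lum, Fmod, Prelp, Ogn and Vcan), were followed in fibrotic and normal rat liver. The genes were chosen by symbol, with earlier results of these data known, so their counts beside those of all genes are description only. The symbols gave 10 entries among the 19616 genes of the table, because Aspn and Ogn each had 2. Whole liver tissue of male SD rats was sequenced after removal of ribosomal RNA, with 1 library per rat. The 3 rats of the fibrotic group (FL) had received intraperitoneal CCl4 (carbon tetrachloride, which injures hepatocytes) mixed with an equal volume of olive oil, at 2 mL/kg and 2 times per week for 5 weeks. The 3 rats of the normal group (CL) had received the same volume of olive oil. The age of the rats was not given in the sources used here. Levels are FPKM, the fragments of a gene scaled to the length of its transcript and to the mapped fragments of the library, so that levels of different genes can be compared. Values of single rats are given in the order CL5, CL6, CL7 and FL2, FL5, FL12 throughout.

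Small leucine-rich proteoglycans are secreted proteins with a curved array of leucine-rich repeats, most of which carry chondroitin, dermatan or keratan sulfate chains. They bind collagen fibrils and influence their width and spacing, and some bind growth factors of the TGF-β family. Versican belongs to another family, the lecticans, which carry chondroitin sulfate chains and bind hyaluronan, and in liver these genes are known from stellate cells, portal fibroblasts and the myofibroblasts of scars.

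In the labelled tissue 8 hepatocyte genes were looked at, and their lowest value in any rat was 59.1 FPKM (Tat in CL6). A level above 0 alone would say little, since 16056 (CL6) to 17138 (FL5) genes were above 0 in a rat. Alb (albumin) stood at 33392, 31431 and 31992 FPKM in the CL rats and at 24149, 25052 and 25209 FPKM in the FL rats. FPKM over all genes summed to 309425, 340467 and 315259 in the CL rats and to 309226, 272350 and 272110 in the FL rats. Read totals were not used here, so no absolute depth is given for a rat. The commonest value above 0 among 114 U6 small nuclear RNA genes, a rough measure of the worth of 1 read in such a short gene, was 0.21, 0.32 and 0.25 FPKM in the CL rats and 0.31, 0.28 and 0.31 FPKM in the FL rats. By this measure CL5 was the deepest library, and the other libraries had 0.656 to 0.84 of its depth. How many reads lie behind a member's level was not computed.

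The FL rats were set against the CL rats to ask how liver with experimental fibrosis differs from normal liver. Of the 8 members, 6 (Dcn, Bgn, Aspn, Lum, Ogn and Vcan) were upregulated in the FL rats and 0 downregulated, against 9.29% of all genes tested upregulated and 0.935% downregulated. Upregulated means at least 2-fold higher with an adjusted p under 0.05, which is the p-value of limma's test on log2(FPKM + 0.1) after Benjamini-Hochberg adjustment for the 14864 genes averaging 0.1 FPKM or more. Fmod and Prelp did not pass. Among the 6, Aspn had a CL mean of 0.0733 FPKM and reached the test only through its FL rats. The count of 6 was 3 without FL5, 4 without CL6, CL7 or FL12 and 5 without CL5. Of the 10 entries, 9 passed the filter on low values, and in 8 of these every FL rat lay above every CL rat, as in 35.7% of all genes tested. At an unadjusted p under 0.05 in limma, 8 of the 9 entries were higher and 0 lower, against 31.5% and 4.04% of all genes tested. Both Aspn entries are among these 8, and the less abundant (CL mean 0.01 FPKM) also passed the filter only through the FL rats. Because the tissue is bulk, fewer cells of a type and less RNA per cell cannot be told apart. The median log2 difference of all genes tested was 0.29 in the values as deposited, 0.076 after median scaling and -0.045 after quantile normalization, and changes of members are therefore also given above that median. The p-values rest on the spread among the rats within a group, pooled over both groups of 3. In limma that spread is also drawn towards a trend with level over all genes, so it is not a gene's own spread alone. Adding 0.1 FPKM before taking logs understates the change of genes with low levels.

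**Figure D1:**
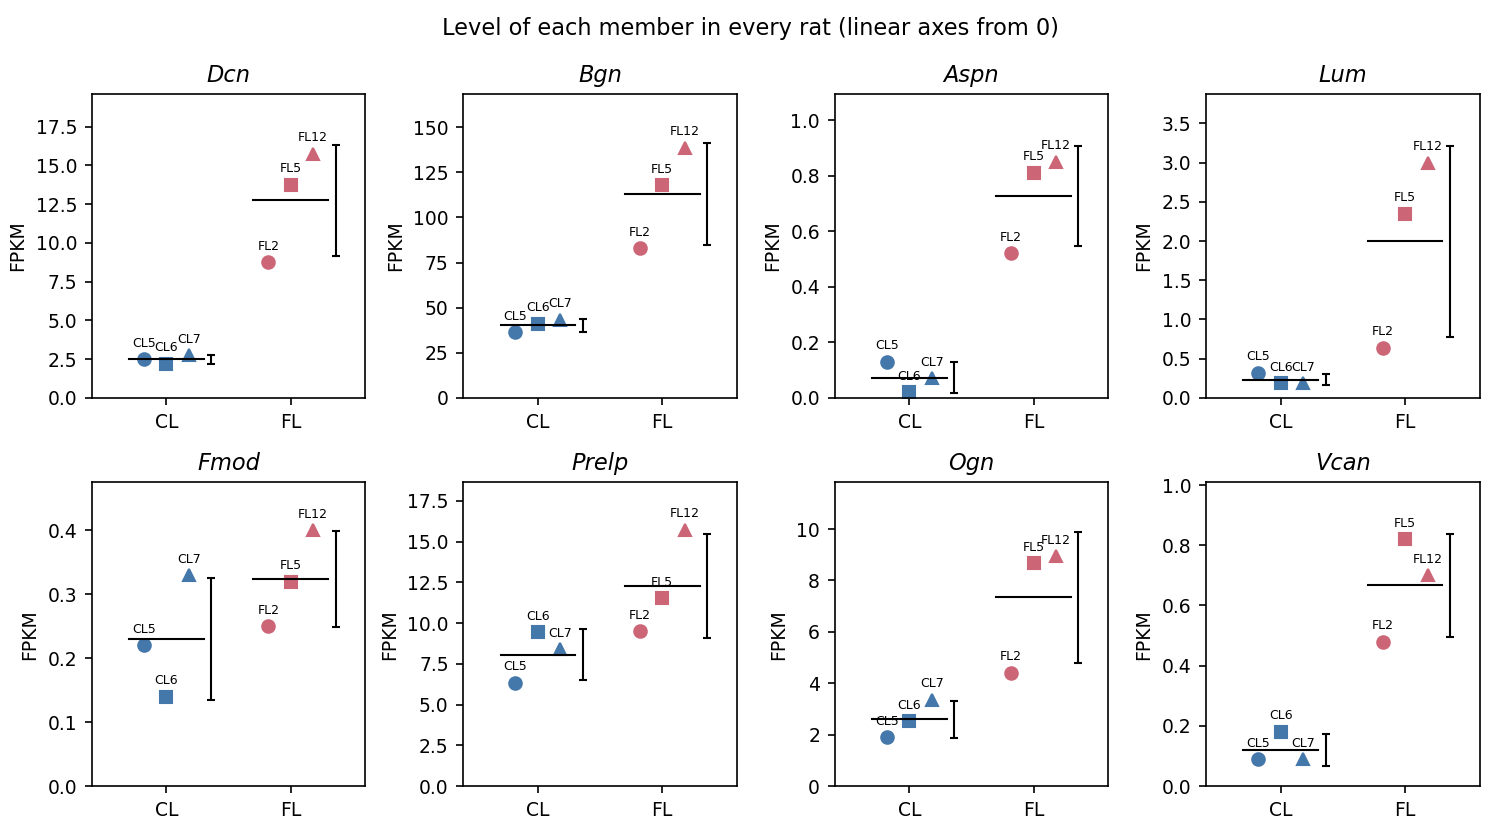
Level of each member in FPKM (vertical axes, linear from 0) in the 3 CL rats (blue) and the 3 FL rats (red), with the mean as a line and the SD over 3 rats as a bar beside it, and for Aspn and Ogn the entry with the higher mean. The FL rats lie above the CL rats in each panel except that of Fmod, where CL7 (0.33 FPKM) exceeds FL2 and FL5.

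Decorin (Dcn, ENSRNOG00000004554, chromosome 7) is a class I member that carries a single glycosaminoglycan chain and binds collagen and TGF-β. It stood at 2.50, 2.20 and 2.75 FPKM in the CL rats and at 8.74, 13.7 and 15.7 FPKM in the FL rats. The groups were far apart, and FL2 was the lowest FL rat. The means were 2.48 ± 0.275 FPKM and 12.7 ± 3.60 FPKM (SD, n = 3 each), with a log2 fold change of 2.28 (SE 0.22, limma adjusted p = 0.00173), or 1.99 above the median of all genes.

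Biglycan (Bgn, ENSRNOG00000055962, chromosome X), also of class I, can be released from matrix and is then bound by Toll-like receptors. It was the most abundant member in every rat, at 36.4, 41.0 and 43.3 FPKM in the CL rats and at 82.9, 118 and 139 FPKM in the FL rats. Each FL rat exceeded each CL rat, and FL12 was the highest. Means of 40.2 ± 3.54 FPKM and 113 ± 28.2 FPKM (SD, n = 3 each) gave a log2 fold change of 1.46 (SE 0.19, limma adjusted p = 0.00469), or 1.17 above the median of all genes. Dcn and Bgn were upregulated under each of the 14 alternative fits.

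Asporin (Aspn), the remaining class I member, carries a run of aspartates near its amino terminus and has 2 entries on chromosome 17. The more abundant (ENSRNOG00000015410) stood at 0.13, 0.02 and 0.07 FPKM in the CL rats and at 0.52, 0.81 and 0.85 FPKM in the FL rats. Its groups did not overlap, and FL5 and FL12 were close together. Its log2 fold change was 2.28 (SE 0.38, limma adjusted p = 0.00818), or 1.99 above the median of all genes. With a pseudocount of 1 it was 0.68, under 2-fold (adjusted p = 0.00976, in a range of 0.00809 to 0.039 over 13 alternatives). The other entry (ENSRNOG00000050431) was listed at 0, 0 and 0.03 FPKM in the CL rats and at 0.10, 0.15 and 0.43 FPKM in the FL rats. Its groups did not overlap, but it did not pass (log2 difference 1.45, SE 0.51, limma adjusted p = 0.0844, or 1.16 above the median of all genes). The CL means of the 2 entries (0.0733 and 0.01 FPKM) lay below the filter, so both were tested only because of their FL rats. The less abundant entry had no value without FL12. Reads could be split between entries of the same symbol, so the levels of Aspn, and likewise of Ogn, are uncertain.

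Lumican (Lum, ENSRNOG00000004610, chromosome 7) is a class II member, a keratan sulfate proteoglycan of collagen fibrils. It stood at 0.32, 0.19 and 0.19 FPKM in the CL rats and at 0.64, 2.35 and 3.00 FPKM in the FL rats. The groups did not overlap, and FL2 lay nearer to the CL rats than to FL5 and FL12. The means were 0.233 ± 0.0751 FPKM and 2.0 ± 1.22 FPKM (SD, n = 3 each), with a log2 fold change of 2.44 (SE 0.52, limma adjusted p = 0.0178), or 2.15 above the median of all genes. The adjusted p of Lum was above 0.05 without CL6 (0.0562), CL7 (0.0674), FL5 (0.0703) or FL12 (0.0549), with no filter (0.0694) and with quantile normalization (0.0529), in a range of 0.0021 to 0.0703 over 14 alternatives.

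Fibromodulin (Fmod, ENSRNOG00000003183, chromosome 13), a class II member that binds collagen at sites shared with lumican, stood at 0.22, 0.14 and 0.33 FPKM in the CL rats and at 0.25, 0.32 and 0.40 FPKM in the FL rats. The groups overlapped, since CL7 lay above FL2 and FL5. The log2 difference was 0.39 (SE 0.36, 95% interval -0.44 to 1.21, limma adjusted p = 0.466), or 0.096 above the median of all genes, and it turned to -0.23 with quantile normalization. The interval includes a change of 2-fold.

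Prolargin (Prelp, ENSRNOG00000003120, chromosome 13), the class II member that binds both collagen and heparan sulfate, stood at 6.35, 9.45 and 8.41 FPKM in the CL rats and at 9.50, 11.5 and 15.7 FPKM in the FL rats. The groups did not overlap, but FL2 was barely above CL6. The log2 difference was 0.59 (SE 0.22, 95% interval 0.088 to 1.08, limma adjusted p = 0.0948), or 0.30 above the median of all genes. Without FL2 the adjusted p was 0.0458 at a log2 difference of 0.75, still under 2-fold, and over 14 alternatives it ranged from 0.0458 to 0.301.

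Osteoglycin (Ogn), the class III member, also called mimecan, has 2 entries on chromosome 17. The more abundant (ENSRNOG00000029792) stood at 1.91, 2.53 and 3.36 FPKM in the CL rats and at 4.42, 8.67 and 8.94 FPKM in the FL rats. The groups did not overlap, and FL5 and FL12 lay close together above FL2. Its log2 fold change was 1.43 (SE 0.31, limma adjusted p = 0.0182), or 1.14 above the median of all genes. The adjusted p was above 0.05 without CL5 (0.0601), CL6 (0.0542), FL5 (0.0696) or FL12 (0.0593), with no filter (0.0695) and with quantile normalization (0.0577), in a range of 0.00527 to 0.0696 over 14 alternatives. The other entry (ENSRNOG00000047786) lay between 0.02 and 0.04 FPKM in all 6 rats, below the filter, and was not tested.

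Versican (Vcan, ENSRNOG00000029212, chromosome 2), the lectican, stood at 0.09, 0.18 and 0.09 FPKM in the CL rats and at 0.48, 0.82 and 0.70 FPKM in the FL rats. The groups did not overlap, and FL5 was the highest rat. Its log2 fold change was 1.80 (SE 0.34, limma adjusted p = 0.0123), or 1.51 above the median of all genes. With a pseudocount of 1 the log2 fold change was 0.57, under 2-fold. The adjusted p was 0.0515 without CL7 and 0.0534 without FL5, in a range of 0.0112 to 0.0534 over 13 alternatives.

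**Figure D2:**
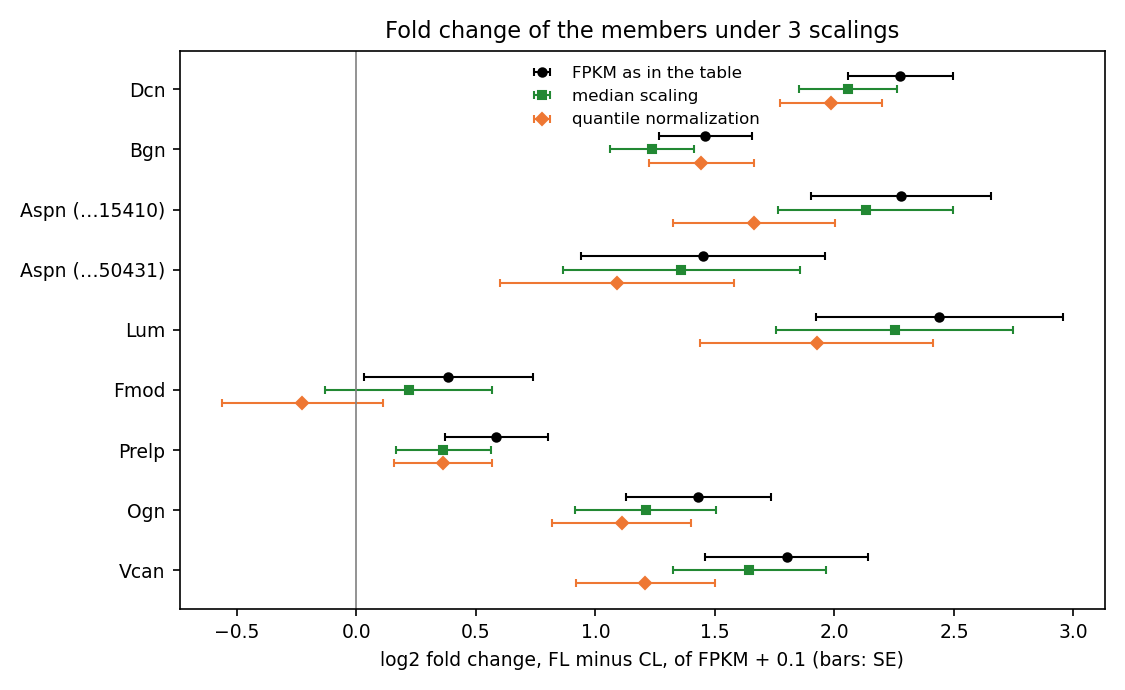
Log2 fold change (horizontal axis, FL minus CL) of each member entry that passed the filter on low values, with limma's SE as bars, for the values as deposited (black circles), after median scaling (green squares) and after quantile normalization (orange diamonds). Fmod turns from 0.39 to -0.23 with quantile normalization, and the other entries lie above 0 under all 3.

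By level in the CL rats, Bgn (mean 40.2 FPKM) was followed by Prelp (8.07 FPKM), then Ogn (2.60 FPKM) and Dcn (2.48 FPKM), which differed by less than the SD of Ogn. Lum, Fmod, Vcan and Aspn had means under 1 FPKM. In the FL rats Bgn (mean 113 FPKM) was followed by Dcn (12.7 FPKM) and Prelp (12.3 FPKM), which differed by less than their SDs, and then by Ogn (7.34 FPKM) and Lum. Aspn (0.727 FPKM) and Vcan (0.667 FPKM) again differed by less than their SDs, and Fmod (0.323 FPKM) was the lowest.

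The 8 members summed to 47.9, 55.7 and 58.6 FPKM in the CL rats and to 108, 156 and 184 FPKM in the FL rats. Bgn made up 75.9%, 73.5% and 74.0% of that sum in the CL rats and 77.0%, 75.4% and 75.1% in the FL rats, and these shares overlapped. The share of Dcn was 5.22%, 3.95% and 4.69% in the CL rats and 8.13%, 8.79% and 8.53% in the FL rats, without overlap. Prelp was the reverse, with 13.3%, 17.0% and 14.4% in the CL rats and 8.83%, 7.39% and 8.53% in the FL rats, also without overlap. The share of Ogn lay between 4.03% and 5.79% over all 6 rats, with overlap of the groups. Left without Bgn, the sum held a mean share of 18.2% Dcn and 58.1% Prelp in the CL rats and of 35.2% Dcn and 34.3% Prelp in the FL rats. The level of Bgn was 14.5, 18.6 and 15.8 times that of Dcn in the CL rats and 9.48, 8.57 and 8.81 times in the FL rats. None of these shares was tested beyond the overlap of single rats.

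**Figure D3:**
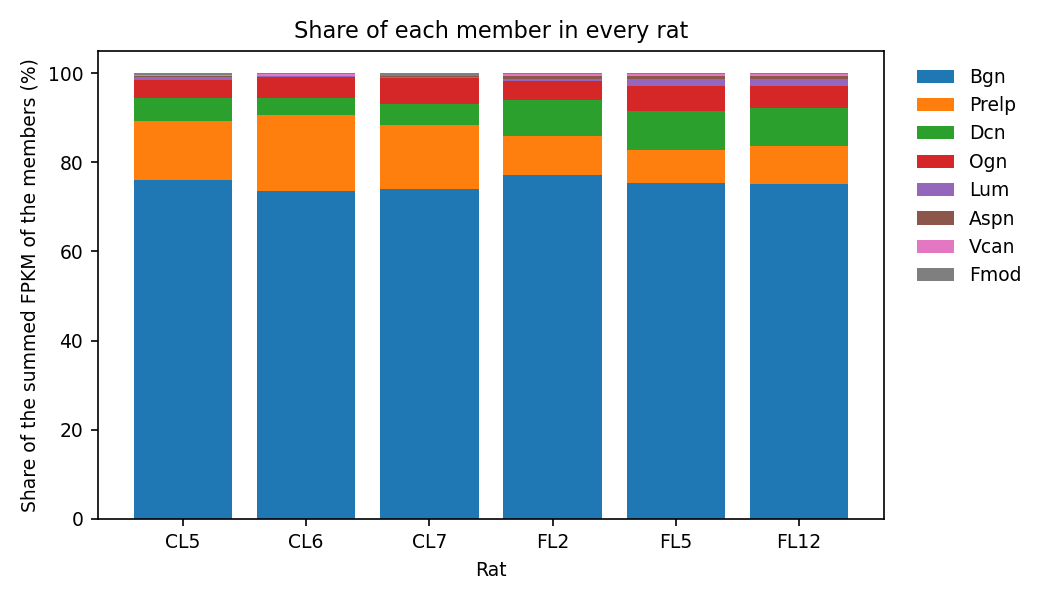
Share of each member in the summed FPKM of the 8 members (vertical axis, percent) in each of the 6 rats. Bgn takes between 73.5% and 77.0% in every rat, and the Dcn band (green) is wider and the Prelp band (orange) narrower in the 3 FL rats.

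Among the FL rats, FL2 was the lowest for all 9 member entries tested, and FL12 the highest for 8 of them, all but Vcan. The order of FL2 below FL5 below FL12, which those 8 had, was found in 28.8% of all genes tested and in 34.2% of the upregulated genes. Lum was spread most widely of the 6 upregulated members, with FL12 at 4.69 times FL2, against 1.80 times for Dcn and 1.67 times for Bgn. FL2 was the lowest FL rat for 51.2% of all genes tested and for 67.5% of the 1381 upregulated genes. The 17 matrix partner genes found in the table summed to 791, 933 and 987 FPKM in the FL rats, with FL2 again the lowest.

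Likeness to the profile of a member over the 6 rats was measured by the root mean square difference of log2 values, each centred on its own mean. The genes most alike were sought among the 10530 genes averaging 1 FPKM or more, with the members left out. They were picked by their values in these same 6 rats. A like order of rats, call or sign change is therefore largely built into the choice, and is given as description only. For Dcn they were Cd84 (0.13), Fhl2 (0.14) and Ednrb (0.15), and for Bgn Ndrg1 (0.033), App (0.065) and Cmtm3 (0.076). App, the amyloid precursor protein gene, stood at 23.9, 26.7 and 25.6 FPKM in the CL rats and at 51.0, 69.7 and 82.1 FPKM in the FL rats, in the same order of FL rats as Bgn. For Lum they were Ccnd1 (0.24), Adamts2 (0.25) and Itgbl1 (0.25). Ccnd1, the cyclin D1 gene, stood at 3.49, 3.11 and 3.35 FPKM in the CL rats and at 5.35, 23.2 and 26.3 FPKM in the FL rats. As for Lum, FL2 was near the CL rats, and the adjusted p of Ccnd1 (0.0303 in limma) was above 0.05 without any one of CL5, CL6, CL7, FL5 or FL12, and with no filter, median scaling, quantile normalization or no trend, in a range of 0.000475 to 0.104 over its alternatives. Ogn was nearest to Mir6318 (0.099), Tacc3 (0.14) and Fbln5 (0.16), and Vcan to Pkm (0.064), Tbxas1 (0.12) and Pld3 (0.12). The less abundant Aspn entry was nearest to Cpne7 (0.16), SNORD79 (0.19) and Fam180a (0.24). Fmod was nearest to Ammecr1 (0.066), Mad2l2 (0.10) and Insc (0.11), and Prelp to Atp6v0e2 (0.056), AABR07045405.1 (0.071) and Phldb3 (0.075). None of these 6 neighbours of Fmod and Prelp passed the test, and those of Fmod turned sign with quantile normalization, as Fmod did. Between members the closest pair was Bgn and Ogn (0.20), and the farthest was Lum and Fmod (1.18).

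Several members lie side by side in the rat genome (RefSeq annotation of GRCr8). Dcn and Lum are neighbours on chromosome 7, and both were upregulated. Btg1, on the other side of Dcn, stood at 74.9, 47.2 and 54.9 FPKM in the CL rats and at 61.1, 46.4 and 43.2 FPKM in the FL rats, with overlap (log2 difference -0.22, SE 0.20, limma adjusted p = 0.458). Optc, Prelp and Fmod follow each other on chromosome 13, and none of the 3 passed. Btg2, an antiproliferative gene beside Fmod, stood at 3.50, 5.16 and 4.32 FPKM in the CL rats and at 6.71, 13.7 and 6.72 FPKM in the FL rats, and its groups did not overlap. Its log2 difference was 0.98, SE 0.29, limma adjusted p = 0.0494, just under 2-fold, and that adjusted p was above 0.05 in 12 of its 14 alternatives, among them without any one of CL5, CL6, CL7, FL5 or FL12 (range 0.0411 to 0.174 over its alternatives). Ogn, Omd and Aspn follow each other on chromosome 17, and Omd, between 2 upregulated members, did not exceed 0.02 FPKM in any rat. Haus7, beside Bgn, did not pass with all 6 rats (log2 difference 0.82, SE 0.29, limma adjusted p = 0.0842), whereas without FL2 its adjusted p was 0.0109 at a log2 difference of 1.14 (range 0.0109 to 0.413 over its alternatives). Atp2b3, on the other side of Bgn, did not exceed 0.05 FPKM. Hapln1, a link protein gene beside Vcan, was listed at 0 in the 3 CL rats and at 0.05, 0.08 and 0.06 FPKM in the FL rats, below the filter. Xrcc4, on the other side of Vcan, did not pass (log2 difference -0.14, SE 0.22, limma adjusted p = 0.663).

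Promoters are shown as description, and a link between their motifs and the change of the members was not tested. In the RefSeq promoter table of GRCr8, which holds 250 bases before and 50 after a gene's start, 5 of the 8 members matched by symbol (Lum, Fmod, Ogn, Aspn and Vcan), with 6 windows in all, and Dcn, Bgn and Prelp are named only. Both strands were searched for TATAAA, for TGANTCA (an AP-1 motif) and for CAGAC (a SMAD motif). These letters occur in 14.2%, 7.33% and 50.1% of the 33469 promoters of the table. CAGAC was found in 3 of the 5 members (Lum, Fmod and Ogn), TATAAA in 1 (Ogn) and TGANTCA in 0. In the windows of the 3 members with a match, capitals mark the matches, where GTCTG is CAGAC on the other strand and TTTATAAA holds overlapping matches of TATAAA on both strands. Lum lies at chr7:34245456-34245755 on the + strand, Ogn at chr17:15258946-15259245 on the - strand and Fmod at chr13:48045317-48045616 on the + strand.
Lum: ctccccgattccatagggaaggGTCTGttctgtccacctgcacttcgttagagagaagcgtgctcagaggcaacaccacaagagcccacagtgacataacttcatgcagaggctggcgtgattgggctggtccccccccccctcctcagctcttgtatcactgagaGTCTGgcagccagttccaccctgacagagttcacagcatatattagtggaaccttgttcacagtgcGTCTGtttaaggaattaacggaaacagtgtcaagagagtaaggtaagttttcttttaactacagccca
Ogn: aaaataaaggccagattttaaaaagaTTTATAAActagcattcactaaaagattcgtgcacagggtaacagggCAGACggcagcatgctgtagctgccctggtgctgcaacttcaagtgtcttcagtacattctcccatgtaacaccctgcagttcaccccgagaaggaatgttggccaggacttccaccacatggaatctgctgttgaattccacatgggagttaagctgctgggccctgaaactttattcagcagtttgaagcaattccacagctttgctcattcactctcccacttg
Fmod: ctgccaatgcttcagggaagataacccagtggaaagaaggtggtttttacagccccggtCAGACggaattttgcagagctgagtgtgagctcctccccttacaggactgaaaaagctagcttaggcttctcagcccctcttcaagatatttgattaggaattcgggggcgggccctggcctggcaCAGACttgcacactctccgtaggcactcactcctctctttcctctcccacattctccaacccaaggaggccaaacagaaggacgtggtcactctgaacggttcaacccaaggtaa

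Of 12 further small leucine-rich proteoglycan genes, 7 were found in the table and 2 passed the filter, and 0 were called in limma (0 also at an unadjusted p under 0.05). Tsku (tsukushi), which liver secretes, stood at 86.1, 155 and 124 FPKM in the CL rats and at 32.8, 62.9 and 189 FPKM in the FL rats, above Bgn in 4 of the 6 rats. Its groups overlapped, with FL2 the lowest and FL12 the highest of all rats (log2 difference -0.69, SE 0.56, limma adjusted p = 0.405). Without FL12 the log2 difference of Tsku was -1.38 (adjusted p = 0.0469, in a range of 0.0469 to 0.871 over its alternatives). Opticin (Optc) stood at 0.96, 0.45 and 0.72 FPKM in the CL rats and at 0.32, 1.04 and 2.17 FPKM in the FL rats, again with FL2 the lowest and FL12 the highest. It did not pass (limma adjusted p = 0.649).

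Among genes of chondroitin and dermatan sulfate synthesis, which include 2 transporters, 3 of 27 tested were upregulated and 0 downregulated, with a median log2 difference of 0.38 (0.089 above that of all genes, with 12 higher and 1 lower at an unadjusted p under 0.05). Of all genes tested, 9.29% were upregulated, and at that unadjusted p 31.5% were higher and 4.04% lower, which is the background of the later lists too. For later counts without FL2, the background is 1831 upregulated of 14847 genes tested. Chst12, a chondroitin sulfotransferase, stood at 0.76, 0.87 and 0.50 FPKM in the CL rats and at 2.30, 3.40 and 2.49 FPKM in the FL rats. Its groups were far apart (log2 fold change 1.81, SE 0.25, limma adjusted p = 0.00493). Chpf, a chondroitin polymerizing factor, had a log2 fold change of 1.69 (SE 0.22, limma adjusted p = 0.00465). Chst14, the dermatan sulfotransferase, had a log2 fold change of 1.34 (SE 0.23, limma adjusted p = 0.00959), which was under 2-fold with a pseudocount of 1 (0.66) and with quantile normalization (0.78, adjusted p = 0.0553, range 0.00944 to 0.0553 over its alternatives). Ugdh, which makes the UDP-glucuronate used for these chains, was the most abundant of the list and lay between 45.3 and 59.0 FPKM, with overlap. Papss1 and Papss2, which make the sulfate donor PAPS and are named after their values were seen, went opposite ways. Papss1 stood at 1.29, 1.62 and 1.25 FPKM in the CL rats and at 2.87, 2.73 and 2.67 FPKM in the FL rats, with every FL rat above every CL rat, by less than 2-fold (log2 difference 0.95, SE 0.17, limma adjusted p = 0.0101). Its adjusted p was 0.0938 with quantile normalization (range 0.00787 to 0.0938 over its alternatives), and it was called upregulated without CL6. Papss2 stood at 31.8, 36.5 and 35.0 FPKM in the CL rats and at 22.7, 20.7 and 20.9 FPKM in the FL rats. Every FL rat was below every CL rat, by less than 2-fold (log2 difference -0.68, SE 0.11, limma adjusted p = 0.0072).

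Of 4 tested genes of keratan sulfate synthesis, B3gnt7 (log2 fold change 1.79, SE 0.26, limma adjusted p = 0.00547) and Chst1 (log2 fold change 1.54, SE 0.45, limma adjusted p = 0.0488) were upregulated and 0 were downregulated. The median of the list was 0.95 (0.66 above that of all genes, with 2 higher and 0 lower at an unadjusted p under 0.05). Both genes were below 1 FPKM in every rat, and with a pseudocount of 1 both changed by less than 2-fold. The adjusted p of Chst1 was above 0.05 without any one of CL5, CL6, CL7, FL5 or FL12, and with a pseudocount of 0.01, no filter, median scaling or quantile normalization (range 0.0396 to 0.198 over its alternatives). Chst2, the most abundant in the CL rats (B3gnt7 was in the FL rats), did not pass (limma adjusted p = 0.511). Among 9 tested entries of lysosomal enzymes that degrade such chains, Galns, which removes sulfate from keratan and chondroitin sulfate, was upregulated (log2 fold change 1.31, SE 0.22, limma adjusted p = 0.00912), though by less than 2-fold with a pseudocount of 1 or quantile normalization. None was downregulated (0), the median was 0.51 (0.22 above that of all genes, with 6 higher and 0 lower at an unadjusted p under 0.05), and 2 were upregulated without FL2. Hexa, the most abundant, lay between 40.1 and 52.9 FPKM, with overlap.

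Of 12 tested genes of hyaluronan and the lecticans, the setting in which versican is bound, 5 were upregulated and 0 downregulated, with a median log2 difference of 0.79 (0.50 above that of all genes, with 8 higher and 0 lower at an unadjusted p under 0.05). Cd44, a hyaluronan receptor, stood at 0.55, 1.07 and 0.77 FPKM in the CL rats and at 2.93, 4.79 and 4.49 FPKM in the FL rats. The groups were well apart (log2 fold change 2.23, SE 0.28, limma adjusted p = 0.00414). Cemip, which takes part in hyaluronan breakdown, stood at 0.14, 0.06 and 0.06 FPKM in the CL rats and at 0.51, 0.76 and 1.35 FPKM in the FL rats, a log2 fold change of 2.32 (SE 0.40, limma adjusted p = 0.00984) that was under 2-fold with a pseudocount of 1. Hmmr, a hyaluronan-binding protein gene that is also active in dividing cells, stood at 0.28, 0.71 and 0.41 FPKM in the CL rats and at 1.13, 3.61 and 3.15 FPKM in the FL rats. Its log2 fold change was 2.19 (SE 0.46, limma adjusted p = 0.0171), with an adjusted p above 0.05 without CL5, CL7, FL5 or FL12 and with no filter (range 0.00457 to 0.0688 over its alternatives). Lyve1, the most abundant in CL5, CL6 and FL12 and by the mean of all 6 rats, lay between 15.7 and 23.8 FPKM, with overlap. The count of 5 was 2 without CL5, CL7 or FL5 and 3 without CL6 or FL12. It includes Cemip and Tnfaip6, which had CL means of 0.0867 and 0.0133 FPKM and passed the filter only through their FL rats. The link protein gene Hapln4 was at 0 in all 6 rats.

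Of 13 tested proteases that can cleave proteoglycans, 3 were upregulated and 0 downregulated, with a median log2 difference of 0.70 (0.42 above that of all genes, with 7 higher and 0 lower at an unadjusted p under 0.05). Mmp12, the macrophage metalloelastase, stood at 0.02, 0.19 and 0.13 FPKM in the CL rats and at 4.02, 24.5 and 12.8 FPKM in the FL rats. FL5 was the highest rat and all 3 CL rats were below 1 FPKM (log2 fold change 5.77, SE 0.62, limma adjusted p = 0.00257). Mmp2, gelatinase A, stood at 2.77, 3.36 and 2.54 FPKM in the CL rats and at 10.5, 19.2 and 20.8 FPKM in the FL rats, with FL2 the lowest FL rat as in Dcn (log2 fold change 2.45, SE 0.26, limma adjusted p = 0.00236). Mmp7 was listed at 0 in the 3 CL rats and at 0.21, 0.54 and 0.27 FPKM in the FL rats (limma adjusted p = 0.0182), and its adjusted p was above 0.05 without CL5, CL6 or CL7 (range 0.0129 to 0.0627 over its alternatives). With a pseudocount of 1 Mmp7 was not called, its difference being under 2-fold. Mmp7 passed the filter on low values only through its FL rats, and it had no value without FL5. Adamts8 (CL mean 0.0367 FPKM, named after its values were seen), 1 of the 7 higher but not called, also passed the filter only through its FL rats. Mmp14, the most abundant, stood at 23.7, 25.5 and 24.2 FPKM in the CL rats and at 39.4, 38.9 and 41.4 FPKM in the FL rats. Its groups did not overlap, at a difference under 2-fold (log2 difference 0.70, SE 0.10, limma adjusted p = 0.00531).

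Of 15 tested matrix partners of the members, 9 were upregulated and 0 downregulated, with a median log2 difference of 1.58 (1.29 above that of all genes, with 13 higher and 0 lower at an unadjusted p under 0.05). Col1a1, a chain of type I collagen, stood at 2.12, 3.77 and 2.12 FPKM in the CL rats and at 17.0, 101 and 73.7 FPKM in the FL rats. FL2 was the lowest FL rat here too (log2 fold change 4.24, SE 0.60, limma adjusted p = 0.00519). Eln (elastin) stood at 2.28, 2.69 and 2.65 FPKM in the CL rats and at 8.36, 18.6 and 25.9 FPKM in the FL rats, with FL12 the highest (log2 fold change 2.60, SE 0.36, limma adjusted p = 0.00493). Fbln1 (fibulin 1) had a log2 fold change of 2.53 (SE 0.33, limma adjusted p = 0.00465). Fn1 (fibronectin), the most abundant in all rats but FL5, lay between 307 and 546 FPKM over all rats, with overlap. Col1a2, named after its values were seen, lay between 0.01 and 0.18 FPKM, below the filter. It encodes the other chain of type I collagen, and whether this entry covers the whole gene was not tested, so its level is uncertain.

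Of 12 tested signalling partners, 4 were upregulated and 0 downregulated, with a median log2 difference of 0.34 (0.054 above that of all genes, with 6 higher and 3 lower at an unadjusted p under 0.05). In 3 of the 12 every FL rat was below every CL rat, and in 5 above, against 4.78% and 35.7% of all genes. Tgfb3 stood at 0.91, 1.18 and 0.80 FPKM in the CL rats and at 4.25, 8.10 and 10.9 FPKM in the FL rats. The groups were far apart, with FL12 the highest (log2 fold change 2.80, SE 0.33, limma adjusted p = 0.00339). Tlr2, a receptor of free biglycan, had a log2 fold change of 1.80 (SE 0.36, limma adjusted p = 0.0146), with an adjusted p of 0.0596 without CL7, 0.0525 with no filter and 0.0607 with quantile normalization (range 0.00925 to 0.0607 over its alternatives). With a pseudocount of 1 it was under 2-fold (0.83). Tgfb1, whose product decorin binds, stood at 3.37, 4.01 and 3.78 FPKM in the CL rats and at 6.72, 10.8 and 8.54 FPKM in the FL rats. Its log2 fold change was 1.18 (SE 0.18, limma adjusted p = 0.00686), and it was under 2-fold with median scaling (0.96) and with quantile normalization (0.89). Lrp1, a scavenging receptor that takes up decorin, was the most abundant and did not pass (limma adjusted p = 0.0704). Egfr, 1 of the 3 lower genes, which decorin can bind and which is named after its values were seen, stood at 62.0, 67.7 and 64.6 FPKM in the CL rats and at 50.3, 44.0 and 35.4 FPKM in the FL rats. Every FL rat was below every CL rat, by less than 2-fold (log2 difference -0.60, SE 0.15, limma adjusted p = 0.0294), and its adjusted p was above 0.05 without any one of CL5, CL6, CL7, FL5 or FL12, with no filter and with no trend (range 0.0132 to 0.0933 over its alternatives). The count of 4 was 2 without CL7.

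Of 17 tested proteoglycans of other families, Gpc6, a glypican, was upregulated (log2 fold change 1.70, SE 0.43, limma adjusted p = 0.0324) and 0 were downregulated, with a median log2 difference of 0.36 (0.073 above that of all genes, with 7 higher and 1 lower at an unadjusted p under 0.05). The adjusted p of Gpc6 was above 0.05 without CL6, CL7, FL5 or FL12, and with no filter, median scaling or quantile normalization (range 0.00873 to 0.115 over its alternatives). With a pseudocount of 1 Gpc6 was under 2-fold (0.72), and without FL2 the list had 2 upregulated genes. The 7 higher genes include Gpc1 and Esm1, named after their values were seen. These had CL means of 0.0267 and 0.09 FPKM and passed the filter only through their FL rats. Sdc2, the most abundant in all rats but FL5, stood at 130, 144 and 146 FPKM in the CL rats and at 145, 111 and 114 FPKM in the FL rats, with overlap. Sdc4, named after its values were seen, stood at 83.5, 94.2 and 111 FPKM in the CL rats and at 48.7, 58.0 and 59.1 FPKM in the FL rats. Its FL rats were all below its CL rats, by less than 2-fold (log2 difference -0.80, SE 0.15, limma adjusted p = 0.0119), and it was called downregulated with median scaling.

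Marker genes of the cells that can make the members were also measured, and their part in the result was not tested. The 8 stellate cell genes summed to 37.8, 29.6 and 27.8 FPKM in the CL rats and to 59.8, 98.6 and 75.0 FPKM in the FL rats, and 3 of 7 tested were upregulated, with log2 fold changes of 2.28 for Des, 2.10 for Rgs5 and 1.69 for Pdgfrb. Rgs5, the most abundant in CL5 and the FL rats but not in CL6 and CL7, stood at 10.01, 5.29 and 5.41 FPKM in the CL rats and at 27.1, 39.0 and 22.4 FPKM in the FL rats. Lrat, named after its values were seen, was the most abundant in CL6 and CL7 and was not higher in the FL rats. It stood at 9.77, 8.77 and 7.18 FPKM in the CL rats and at 7.11, 8.91 and 8.33 FPKM in the FL rats, with overlap (log2 difference -0.073, SE 0.15, limma adjusted p = 0.758). Acta2, named after its values were seen, stood at 3.85, 2.62 and 2.68 FPKM in the CL rats and at 3.87, 17.3 and 9.59 FPKM in the FL rats, with FL2 barely above CL5. It did not pass (limma adjusted p = 0.0609), but without FL2 its adjusted p was 0.00607 at a log2 difference of 2.07 (range 0.00607 to 0.172 over its alternatives). The 7 portal fibroblast genes summed to 3.48, 3.89 and 3.79 FPKM in the CL rats and to 10.2, 22.7 and 29.5 FPKM in the FL rats, and 2 of 5 tested were upregulated. These were Eln, the most abundant and also a matrix partner, and Entpd2 (log2 fold change 1.13, SE 0.32, limma adjusted p = 0.0439), whose adjusted p was above 0.05 without any one of CL5, CL6, CL7, FL5 or FL12, and with a pseudocount of 1, no filter, median scaling or quantile normalization (range 0.0361 to 0.297 over its alternatives). Mfap4, of the same list, was listed at 0 in the 3 CL rats and at 0.06, 0.15 and 0.08 FPKM in the FL rats. The 6 smooth muscle genes summed to 8.43, 9.09 and 8.09 FPKM in the CL rats and to 8.32, 14.0 and 11.6 FPKM in the FL rats, with Smtn the most abundant. Lmod1 was upregulated among 5 tested (log2 fold change 1.28, SE 0.37, limma adjusted p = 0.0465), with an adjusted p above 0.05 without any one of CL5, CL6, CL7, FL5 or FL12, and with a pseudocount of 1, no filter, median scaling or quantile normalization (range 0.0129 to 0.199 over its alternatives). At an unadjusted p under 0.05, 6 of the 7 stellate, 4 of the 5 portal fibroblast and 1 of the 5 smooth muscle genes tested were higher and 0 lower, against 31.5% and 4.04% of all genes. Without FL2, 5 stellate, 4 portal fibroblast and 2 smooth muscle genes were upregulated. Calls over all genes also rose without FL2, from 1381 of 14864 genes tested to 1831 of 14847.

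The 6 macrophage genes summed to 93.2, 88.7 and 91.7 FPKM in the CL rats and to 218, 194 and 119 FPKM in the FL rats, with FL12 the lowest FL rat, where it was the highest for most members. Of these 6, 5 were higher and 0 lower at that unadjusted p, and 3 were upregulated, with log2 fold changes of 2.06 for Marco, 1.69 for Cd68 and 1.13 for Csf1r, and Csf1r was under 2-fold without FL5 (0.99), with median scaling (0.91) and with quantile normalization (0.93). Clec4f, a Kupffer cell gene and the most abundant in the CL rats and FL5 but not in FL2 and FL12, stood at 49.9, 43.2 and 48.4 FPKM in the CL rats and at 66.6, 57.4 and 26.3 FPKM in the FL rats, with overlap. Hepatocyte genes, with Alb the most abundant, summed to 42558 to 44923 FPKM in the CL rats and to 33695 to 35954 FPKM in the FL rats, and 0 of 8 were called in limma (2 higher and 0 lower at an unadjusted p under 0.05, against 31.5% and 4.04% of all genes). In 3 of the 8, with Alb among them, every FL rat was below every CL rat, and in 1 of the 8 every FL rat was above, against 4.78% and 35.7% of all genes tested. The log2 difference of Alb was -0.38, with an SE of 0.98 (limma adjusted p = 0.804). Without the trend the SE was 0.12 and the adjusted p 0.0789 (range 0.0789 to 1 over its alternatives), and with quantile normalization the log2 difference turned to 0.49.

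Mesothelial genes, with Msln the most abundant, summed to 3.30, 4.14 and 3.41 FPKM in the CL rats and to 1.01, 1.54 and 5.01 FPKM in the FL rats, with FL12 the highest of all rats. In limma 0 of 5 were called (1 higher and 0 lower at an unadjusted p under 0.05), and without FL12 the log2 difference of Msln was -1.67 (adjusted p = 0.0157, in a range of 0.0157 to 0.409 over its alternatives). The 1 higher gene, Wt1 (CL mean 0.09 FPKM, named after its values were seen), passed the filter only through its FL rats. Wt1 was the only 1 of the 5 with a positive log2 difference, and the median of the list was -0.71. In 1 of the 5 every FL rat was below every CL rat and in 0 above, against 4.78% and 35.7% of all genes tested. Endothelial genes, with Kdr the most abundant in all rats but FL12, summed to 71.4, 69.6 and 61.9 FPKM in the CL rats and to 85.2, 68.0 and 77.4 FPKM in the FL rats, and 0 of 5 were called in limma (2 higher and 0 lower at an unadjusted p under 0.05). Cholangiocyte genes, with Epcam the most abundant, summed to 5.38, 7.75 and 5.58 FPKM in the CL rats and to 5.38, 8.06 and 11.3 FPKM in the FL rats, and 0 of 5 were called in limma (1 higher and 0 lower at an unadjusted p under 0.05). That 1 gene, Cftr (CL mean 0.0867 FPKM, named after its values were seen), passed the filter only through its FL rats. Lymphocyte genes, with Cd8a the most abundant in CL5 and FL5 and by the mean of each group, summed to 1.46, 1.46 and 1.46 FPKM in the CL rats and to 3.05, 4.89 and 1.53 FPKM in the FL rats, and 0 of 4 were called in limma (1 higher and 0 lower at an unadjusted p under 0.05). Of these lists and the hepatocyte genes, 1 hepatocyte, 1 mesothelial and 1 cholangiocyte gene were upregulated without FL2, and 1 lymphocyte gene was upregulated and 1 mesothelial gene downregulated without FL12. Over all genes, 1831 of 14847 tested were upregulated without FL2. Leaving out FL12 gave 954 upregulated and 110 downregulated of 14671 tested. At that unadjusted threshold 31.5% of all genes tested were higher and 4.04% lower. The part of these cells in the levels of the members was not tested.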

How the data were processed

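Levels are the FPKM that the authors deposited for 6 livers. According to their methods, reads were cleaned (FASTX-Toolkit) and mapped (TopHat2). They name GRCh38 as the genome, but the gene identifiers are those of the rat in Ensembl. Another 2 columns of the table, which match no sample of the series, were left out. Groups follow the labels. limma with a trend compared log2(FPKM + 0.1) for genes averaging 0.1 FPKM or more over the 6 rats. A gene could therefore pass this filter through the rats of 1 group alone. Benjamini-Hochberg adjustment was over the 14864 tested, and the procedure was tested on simulated data. Between any 2 rats, 0.866% to 2.54% of the genes above 0 in either had exactly the same value. The members and lists were chosen with earlier results of these data known. The text names the members, and from each list the 3 called genes that increased most, the 2 that decreased most and the most abundant over all 6 rats. It also names the other family members above the filter, neighbours, the 3 nearest profiles of each member (not for the more abundant Aspn entry) and defining markers at 0, and says where a gene was added later. RefSeq (GRCr8) gave gene order and promoters. The alternatives were pseudocounts of 1 and 0.01, no filter, a filter at 1 FPKM, scaling to medians or quantiles, a robust prior, no trend, each rat left out, and, for counts, calls at any fold change. Tools were R 4.3.3, limma 3.58.1, Python 3.11.15, numpy 2.4.6, pandas 2.3.3 and matplotlib 3.10.9.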

Additional observations from a re-analysis of the deposited data

How the results depend on the processing

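Of 58 genes chosen for naming with an adjusted p under 0.05, 40 kept their direction and their side of that threshold under every alternative that gave a value, and 0 changed direction. Over all 89 genes so chosen, 106 of 1228 values under an alternative were no longer past the threshold, 8 newly passed it and 22 changed sign. The causes were not tested.

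Among all genes, 1381 were upregulated and 139 downregulated. A pseudocount of 1 gave 462 and 72, no filter on low values 846 and 78, a filter at 1 FPKM 854 upregulated, median scaling 824 upregulated, quantile normalization 453 and 231, and calls at any fold change 2518 and 288. Upregulated genes were 90.9% of the calls, and 66.2% with quantile normalization. Leaving out 1 rat gave 740 (without CL7) to 1831 (without FL2) upregulated genes, with 745 without FL5, and 81 (without CL6 or CL7) to 160 (without FL2) downregulated genes. Of the members, 3 (without FL5) to 6 were upregulated when 1 rat was left out, and 4 to 6 under the other alternatives. No alternative gave a downregulated member (0).

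The log2 difference of genes that did not pass turned with quantile normalization for Fmod (-0.23), Alb (0.49), Ammecr1 (-0.15), Chst2 (-0.31), Insc (-0.13), Mad2l2 (-0.066), Optc (-0.14) and Smtn (-0.26), and with median scaling for Fn1 (-0.12), Hexa (-0.050) and Smtn (-0.20). With 1 rat left out, the log2 difference ranged from -0.28 to 0.39 for Clec4f, -0.12 to 0.30 for Fn1, -0.18 to 1.04 for Optc, -0.024 to 0.094 for Smtn, -0.165 to 0.025 for Ugdh and -0.25 to 0.028 for Xrcc4.

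No paired analysis was possible because the groups share only 1 number (5). Planned protein sequence features were not run. Read totals were not used, so no counting error was given for members below 1 FPKM. In every fit limma pooled the spread over both groups, also where a group was left with 2 rats.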
